A study of Homo sapiens with 4 samples.

Results

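Neuronal marker genes are the genes whose products are used to recognise nerve cells: cytoskeletal proteins of axons and dendrites, proteins of the synaptic release machinery, a neuronal glycolytic enzyme, an adhesion molecule and a calcium buffer. Here 10 of them were followed, namely MAP2, GAP43, SNAP25, ENO2, STMN2, NEFL, NEFM, SYT1, NCAM1 and CALB2, through every probe set that the platform annotation assigns to 1 of these genes and no other. This gave 26 probe sets of 54613 on the array, and 10 genes of 19775 named genes. All 4 conditions were hybridised once, so each had 1 array.

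The cells were U87TR-Da, made from U87MG, a human glioblastoma line, so that DACH1, a nuclear repressor of transcription, is under doxycycline control. The 4 arrays were DACH1-induced and DACH1-silenced cells in a medium labelled serum-free (Neurobasal with EGF, basic FGF and the N-2 and B-27 supplements), and DACH1-induced and DACH1-silenced cells in a medium labelled serum (DMEM with 10% fetal bovine serum). The treatment line of all 4 samples, the silenced ones included, gives doxycycline at 1 µg/mL over 72 h. How silencing was achieved, and whether the line is 1 clone, is not stated. No label speaks of repeated cultures. The p-values below rest only on these single arrays and do not measure a spread between replicates. Values are MAS5 signals, linear intensities of single probe sets, and levels are compared between arrays within a probe set, never between probe sets.

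In the nervous system, microtubule-binding proteins such as MAP2 and STMN2 and the neurofilament subunits shape neurites, GAP43 marks growing axons, and SNAP25 and SYT1 drive calcium-triggered fusion of synaptic vesicles. Many neuronal genes are held silent outside neurons by the repressor REST, which binds RE1 elements and recruits corepressors and histone-modifying enzymes. Several of the markers are not restricted to neurons: ENO2 is a glycolytic enzyme that tumour cells also use and that hypoxia induces, NCAM1 is found on many embryonic and glial cells, and CALB2 also marks mesothelial cells.

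DACH1 itself read 875.1 in induced and 32.5 in silenced cells labelled serum-free, and 4431 in induced and 126.0 in silenced cells labelled serum, so the DACH1 labels held. The medium labels were checked with a list of serum response genes. In limma, 8 of its 11 genes fitted rose and 1 fell in the arrays labelled serum-free, against 15.4% of all genes higher and 12.7% lower. CNN1, a calponin of contractile cells, read 606.7 and 874.0 in induced and silenced cells labelled serum-free, and 39.4 and 33.2 in those labelled serum. ID3, which responds to BMP signals, read 998.9 and 1122 against 75.7 and 45.2. These genes are usually raised by serum, so they went against the medium labels. Whether the media were exchanged was not tested, and the media are called by their labels throughout.

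The promoters of ENO2 and GAP43 are shown because these genes had the highest medium folds of the members in the limma fit described below. In the induced pair alone SNAP25, which has no entry in the promoter table, was above GAP43, and in limma it was so with no floor (log2 1.79 against 1.52) and with the mean of all probe sets (1.76 against 1.27). The letters are the 250 bases before the annotated start in RefSeq, build GRCh38.p14, plus strand, 5′ to 3′. They were searched on both strands for ACGTG, the core of hypoxia-factor sites, TTCAGCACC and GGACAGC, the left and right parts of the RE1 element, and TATAAA, the TATA box. Capitals mark the matches, none of which overlapped. The window of SYT1 and the 3 windows of MAP2 matched none of these 4 motifs and are not printed, a choice made after the search. The ENO2 window, at chr12:6914330-6914579, has 1 ACGTG. The GAP43 window, at chr3:115623260-115623509, has 1 GGACAGC.
ENO2: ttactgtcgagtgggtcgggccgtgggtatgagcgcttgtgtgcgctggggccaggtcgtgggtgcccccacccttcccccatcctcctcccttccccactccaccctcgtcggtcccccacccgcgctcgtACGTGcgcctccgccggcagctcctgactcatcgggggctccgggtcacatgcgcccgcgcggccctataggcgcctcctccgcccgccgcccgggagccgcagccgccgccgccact
GAP43: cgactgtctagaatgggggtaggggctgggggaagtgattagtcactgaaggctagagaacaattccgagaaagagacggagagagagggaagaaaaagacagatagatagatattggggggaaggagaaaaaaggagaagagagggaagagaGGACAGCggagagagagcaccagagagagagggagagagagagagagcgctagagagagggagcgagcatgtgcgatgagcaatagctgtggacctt
The E-box CANNTG, which can overlap ACGTG and is not capitalised, was found once each in the ENO2 and GAP43 windows, in 2 of the 3 MAP2 windows, and in 62.2% of all windows. ACGTG occurred in 18.7% of 27305 promoter windows of the same length, GGACAGC in 4.78%, TTCAGCACC in 0.3% and TATAAA in 11.1%. GC content was 74.0% in the ENO2 window and 51.6% in the GAP43 window, with a median of 58.0% over all windows. A match of these letters is a description of the window and not a binding site.

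Of the 10 markers, 7 gave a signal over the floor. ENO2, SNAP25 and CALB2 had a signal over 100 on at least 1 array, NCAM1, MAP2 and GAP43 stayed under 100, SYT1 stayed at 28.3 or under, and 3 members gave only a bound. Both probe sets of STMN2, a tubulin-sequestering protein of growing neurites, stayed between 0.4 and 3.8. The 3 probe sets of NEFL, the light neurofilament chain, stayed between 0.2 and 9.5, and the 2 of NEFM, the medium chain, between 0.7 and 6.7. All of these lay under 10.9, the floor to which low signals were set, on every array, so no difference is given for these 3 genes. Of the 26 probe sets, 16 reached 17.2, the median of all signals, on at least 1 array, 7 reached it on all 4, and 5 reached 100 on any array.

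**Figure D1:**
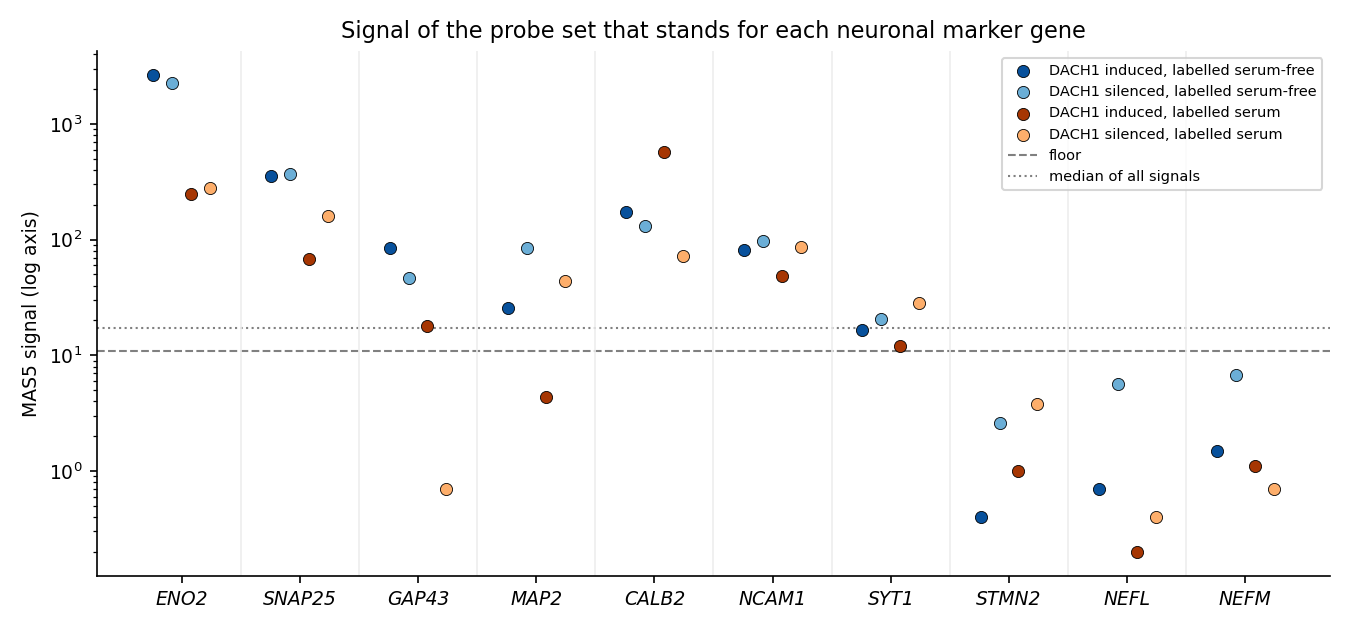
MAS5 signal (log axis) of the probe set that stands for each of the 10 genes on the 4 arrays, with 1 point per array, the floor dashed and the median of all signals dotted. ENO2 reads 2673 and 2271 in the arrays labelled serum-free against 249.7 and 282.0 in those labelled serum, CALB2 is highest at 569.2 in induced cells labelled serum, and STMN2, NEFL and NEFM lie under the floor on every array.

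Other neuron-defining genes were also at background. Of 14 neuron markers in all, the 10 members among them, 6 were under the floor on every array. Over all named genes it was 3937 of 19775. The 6 were the members STMN2, NEFL and NEFM, the neuronal splicing factor RBFOX3, the synaptic vesicle protein SYP and the migration protein DCX. TUBB3, the neuronal beta tubulin that many tumour lines make, was bright, at 4902 and 5514 in induced and silenced cells labelled serum-free and 2249 and 1279 in those labelled serum. Of 7 astrocyte markers, GFAP, AQP4 and S100B were under the floor on every array, while the gap junction gene GJA1 read between 2611 and 4692, the glutamate transporter gene SLC1A3 between 12.8 and 158.0 and ALDH1L1 between 20.3 and 28.2. Of 5 progenitor genes, SOX2 and MSI1 were under the floor on every array, while PAX6 read between 171.0 and 247.9 and NES between 19.6 and 35.8. Of the genes of mesenchymal glioma lines, VIM read between 6065 and 9278 and CD44 between 4214 and 5666, and FN1, the fibronectin gene, rose 3.73-fold with the serum-free label (limma adjusted p 0.0203). In such bulk RNA, fewer cells of a type and less RNA per cell cannot be told apart.

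The media were compared to see which markers differ between the supplemented Neurobasal and the serum medium of the labels. ENO2, GAP43, SNAP25 and MAP2 were higher in the arrays labelled serum-free, between 2.14-fold and 9.28-fold, and no marker was lower in both DACH1 states. In limma with medium and DACH1 state as terms, 4 of the 10 members rose in the arrays labelled serum-free, 0 fell, and 7 entered the fit. The background was high, with 15.4% of 12103 genes called higher and 12.7% lower. For each gene 1 residual degree of freedom was left. That residual is how far the DACH1 difference differs between the media in single arrays, and not a spread between replicates. Limma combines it with a prior taken from all genes fitted. With no filter on low signals, which fits 19775 genes, none of the 4 was called (limma adjusted p 0.111 for GAP43, 0.133 for ENO2, 0.181 for MAP2 and 0.314 for SNAP25).

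ENO2, the neuron-specific enolase of glycolysis, has 1 probe set. It read 2673 in induced and 2271 in silenced cells labelled serum-free, against 249.7 in induced and 282.0 in silenced cells labelled serum. The media did not overlap, and the DACH1 states were close within each medium. ENO2 was 10.7-fold higher in induced and 8.05-fold higher in silenced cells. In limma it rose by 3.21 on the log2 scale (SE 0.20), 9.28-fold, with an adjusted p of 0.0167, and was higher in 2 of 2 pairs.

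ENO1, the enolase of most tissues, had a smaller difference that missed the threshold (2.23-fold, limma adjusted p 0.0576), at 8393 and 10011 in induced and silenced cells labelled serum-free and 5216 and 3228 in those labelled serum. ENO3, the muscle enolase, was dim, between 10.1 and 36.0. Of 14 genes of hypoxia and glycolysis fitted, 7 rose, 0 fell and 7 did not pass, with a median log2 difference of 1.17 against 0.02 over all genes. Among all genes fitted, 15.4% were called higher and 12.7% lower. PFKFB4, a regulator of glycolytic flux, rose 10.4-fold (limma adjusted p 0.0167), the kinase gene PDK1 5.76-fold (0.0167) and the glucose transporter gene SLC2A1 5.90-fold (0.0208). LDHA, the lactate dehydrogenase gene, was 1.78-fold higher with a limma adjusted p of 0.103. VEGFA, a growth factor gene that hypoxia induces, read 2881 and 2830 in induced and silenced cells labelled serum-free and 4873 and 3763 in those labelled serum (log2 -0.58, limma adjusted p 0.0979), and the peptide hormone gene ADM differed by 1.08-fold (0.790). The part of these genes in the ENO2 difference was not tested.

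SNAP25 encodes a SNARE protein that fuses synaptic vesicles with the membrane, and its 3 probe sets gave the same order of arrays. The brightest read 352.5 in induced and 370.3 in silenced cells labelled serum-free, against 68.6 in induced and 160.2 in silenced cells labelled serum. Another read 182.2 and 201.6 against 54.7 and 107.5, and the third 124.5 and 129.0 against 17.7 and 45.4. Both arrays labelled serum-free were thus above both labelled serum in each probe set, and induced cells labelled serum were lowest in each.

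For the brightest probe set the medium fold was 5.14 in induced and 2.31 in silenced cells, and in limma SNAP25 rose 3.45-fold (log2 1.79, SE 0.34, adjusted p 0.0349). With no floor under low signals this adjusted p came to 0.0546. Fitted over all 23629 probe sets, each of the 3 rose, by 4.47-fold, 2.50-fold and 3.45-fold, with limma adjusted p of 0.0216, 0.0318 and 0.0256. SNAP23, the SNAP25 relative of non-neuronal cells, was not called: it read 695.3 and 572.2 in induced and silenced cells labelled serum-free and 860.7 and 905.7 in those labelled serum (limma adjusted p 0.141).

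GAP43, a growth cone protein of extending axons, was close to background in the medium labelled serum. Its brightest probe set read 85.4 in induced and 47.0 in silenced cells labelled serum-free, against 17.9 in induced and 0.7 in silenced cells labelled serum. The second read 39.0 and 40.4 against 14.2 and 13.5, and the third 16.1 and 13.9 against 17.4 and 1.9. The first 2 separated the media and the third did not.

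In limma GAP43 rose 4.54-fold (log2 2.18, SE 0.18, adjusted p 0.0170) by its brightest probe set, and 2.87-fold by the second in the fit over all probe sets (adjusted p 0.0150). For the brightest probe set the silenced signal labelled serum lay under the floor, so its 4.31-fold difference in silenced cells is a bound. In induced cells this probe set was 4.77-fold higher. The second, over the floor on every array, was 2.99-fold higher in silenced and 2.75-fold higher in induced cells. Only its arrays labelled serum-free reached the median of all signals. It passed the filter through these arrays alone and is not independent support. The third was 1.08-fold lower in induced cells, and neither of its silenced signals reached the median of all signals.

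MAP2, a microtubule protein of dendrites, read 25.9 in induced and 85.1 in silenced cells labelled serum-free, against 4.4 in induced and 44.0 in silenced cells labelled serum. Within each DACH1 state it was higher in the medium labelled serum-free, at least 2.38-fold in induced and 1.93-fold in silenced cells. The groups of 2 arrays overlapped, because silenced cells labelled serum exceeded induced cells labelled serum-free. In limma MAP2 rose 2.14-fold with medium (log2 1.10, SE 0.19, adjusted p 0.0309), and with no floor the adjusted p was 0.0816. Its other probe set, between 0.8 and 27.5, was not called (limma adjusted p 0.365 over all probe sets).

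The other 3 measured members gave no medium call. NCAM1, a homophilic adhesion molecule, read 81.7 in induced and 98.3 in silenced cells labelled serum-free, against 48.7 in induced and 86.6 in silenced cells labelled serum (1.38-fold, limma adjusted p 0.192). SYT1, the calcium sensor of vesicle release, read 16.7 and 20.4 against 12.1 and 28.3 (limma adjusted p 0.993). CALB2, the calcium buffer calretinin, read 174.6 and 131.3 against 569.2 and 72.0 (adjusted p 0.667), with the states on opposite sides. For CALB2 the medium labelled serum-free was 3.26-fold lower in induced and 1.82-fold higher in silenced cells.

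**Figure D2:**
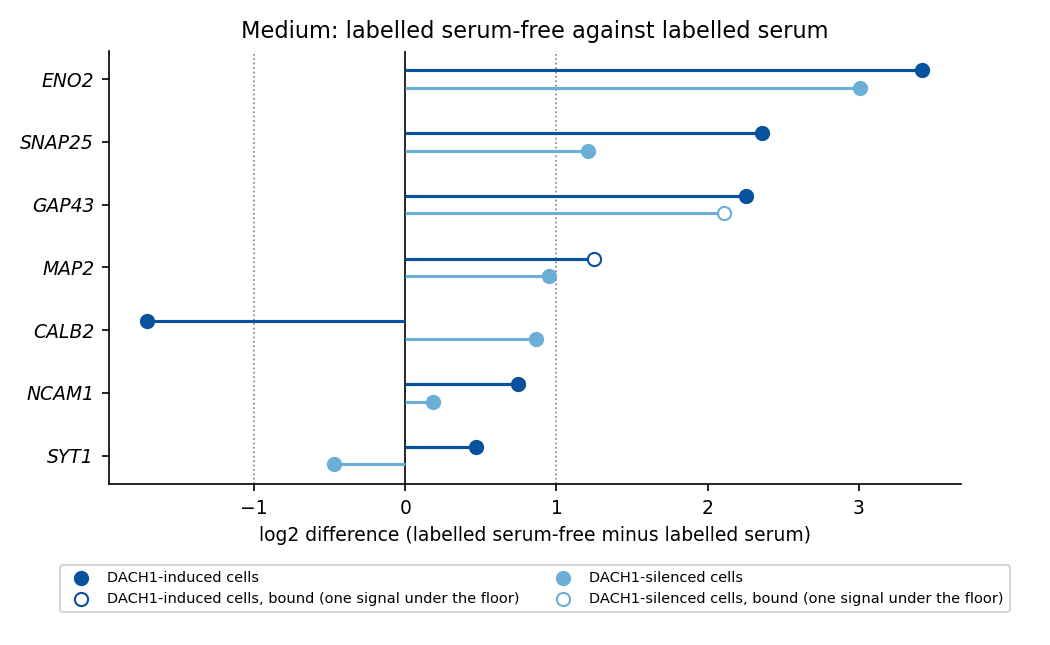
Log2 difference between the media (labelled serum-free minus labelled serum) of the 7 measured members in DACH1-induced and DACH1-silenced cells, with 1 pair of arrays per point, dotted lines at 2-fold and open points where 1 signal was under the floor. ENO2, SNAP25 and GAP43 are past 2-fold in both states, and CALB2 lies at -1.71 in induced and 0.87 in silenced cells.

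Counted at 2-fold without a test, 4 members were higher and 1 lower with the serum-free label in induced cells, where 14.0% of genes were higher and 10.1% lower. In silenced cells 3 were higher and 0 lower, with 15.3% of genes higher and 12.2% lower. Over probe sets, 8 of the 12 compared in induced cells and 6 of the 15 in silenced cells were at least 2-fold higher (background 14.4% and 15.5% of probe sets). Probe sets of 1 gene share their transcript and are not independent.

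The comparison of DACH1-induced with silenced cells gave no call among the markers. In limma 0 of 12103 genes passed for DACH1 state (0.0% higher and 0.0% lower), with 585 at an unadjusted p under 0.05. DACH1 itself was 30.8-fold higher in induced cells by limma and was not called either (adjusted p 0.234). A missing call here does not show that a gene was unchanged. Among members the smallest unadjusted p was that of MAP2, 0.000691 (limma adjusted p 0.931). The differences below describe single pairs of arrays, with no replicate check.

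MAP2 was lower with DACH1 induced in both media. In the medium labelled serum-free it read 25.9 in induced and 85.1 in silenced cells, 3.29-fold lower, and in the medium labelled serum 4.4 and 44.0, at least 4.04-fold lower. Its second probe set read 5.4 in induced and 27.5 in silenced cells labelled serum-free, and 0.8 and 17.4 in those labelled serum, at least 2.52-fold and 1.60-fold lower. Both probe sets had the induced array under the silenced one in each medium, at signals under 100 throughout. In the second, both induced signals lay under the floor and only the silenced arrays reached the median of all signals. It passed the filter through these arrays alone and is not independent support.

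**Figure D3:**
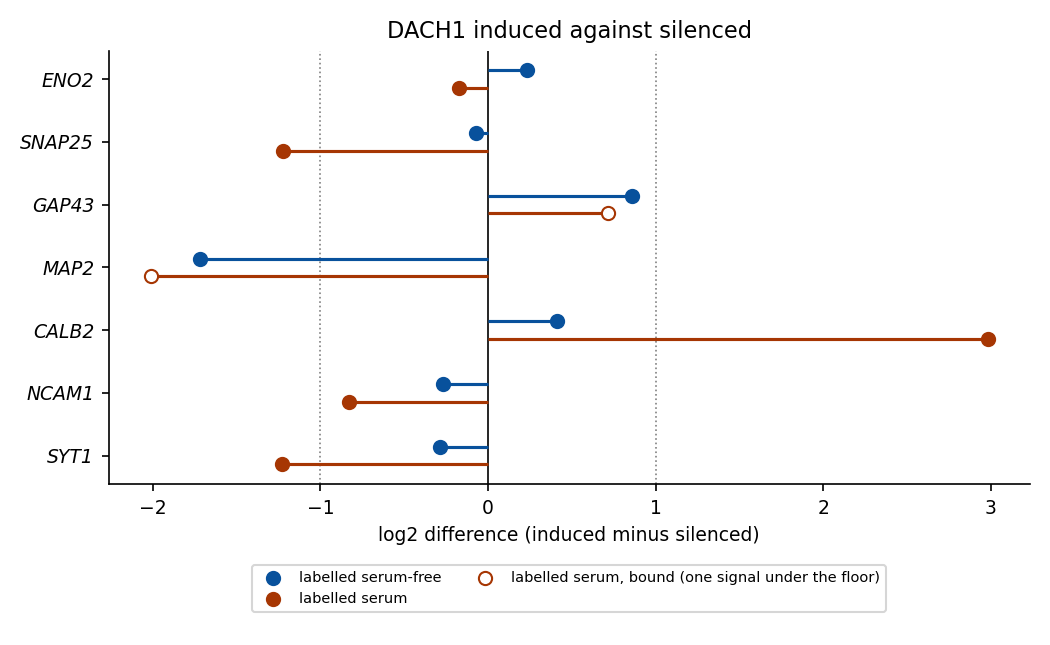
Log2 difference between DACH1-induced and DACH1-silenced cells (induced minus silenced) of the 7 measured members in each medium, with 1 pair of arrays per point, dotted lines at 2-fold and open points where 1 signal was under the floor. MAP2 is past 2-fold in both media, and SNAP25, SYT1 and CALB2 are past it in the medium labelled serum, where SNAP25 is at -1.22 and CALB2 at 2.98.

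SNAP25 was 2.34-fold lower with DACH1 in the pair labelled serum (68.6 in induced and 160.2 in silenced cells), against 1.05-fold in the pair labelled serum-free. Its other probe sets were 1.97-fold and 2.57-fold lower in the pair labelled serum, and 1.11-fold and 1.04-fold lower in the other. The difference of the 2 log2 differences was 1.15 for the brightest probe set, and 5.4% of genes had one of at least 1 in that direction. This difference of differences uses up all 4 arrays and has no test.

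CALB2 was higher with DACH1 in both pairs. It read 569.2 in induced and 72.0 in silenced cells labelled serum, 7.91-fold higher, and 174.6 and 131.3 in those labelled serum-free, 1.33-fold higher. Its difference of differences was -2.57, and 4.76% of genes lay at -1 or lower. The gene has 1 probe set, and the limma adjusted p was 0.931 (log2 1.70, SE 0.67). CALB1 and PVALB, its relatives among neuronal calcium buffers, were under the floor on every array.

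SYT1 and NCAM1 were also lower with DACH1 in the pair labelled serum. SYT1 read 12.1 in induced and 28.3 in silenced cells labelled serum (2.34-fold lower), and 16.7 and 20.4 in those labelled serum-free. Only its silenced arrays reached the median of all signals, so it was compared through these arrays alone. Its log2 difference labelled serum, -1.23, was under 2-fold with a pseudocount (-0.77) and with the mean of its probe sets (-0.61). Its second probe set was under the floor on every array. NCAM1, with 7 probe sets, gave 48.7 in induced and 86.6 in silenced cells labelled serum by the brightest (1.78-fold lower) and 23.8 and 47.6 by the next (2.0-fold lower). In the medium labelled serum-free these read 81.7 and 98.3, and 57.4 and 67.9. The other 5 probe sets of NCAM1 stayed at 23.3 or under.

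GAP43 was higher with DACH1 by its brightest probe set, 1.82-fold in the pair labelled serum-free and at least 1.64-fold in that labelled serum, but not by the second, at 39.0 in induced and 40.4 in silenced cells labelled serum-free. ENO2 was 1.18-fold higher with DACH1 in the medium labelled serum-free and 1.13-fold lower in that labelled serum.

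In the medium labelled serum-free, 0 of the 10 members were at least 2-fold higher with DACH1 and 1, MAP2, was lower, with 1.02% of genes higher and 2.72% lower. In the medium labelled serum, 1 was higher (CALB2) and 3 were lower (MAP2, SNAP25 and SYT1), with 2.91% of genes higher and 4.77% lower. In that pair MAP2 and SYT1 reached the median of all signals only on the silenced array. Over the 7 members compared, the median log2 difference was -0.07 labelled serum-free and -0.83 labelled serum, against -0.00 and 0.01 over all genes. At the level of probe sets, 3 of 15 compared labelled serum-free (background 2.61%) and 5 of 12 labelled serum (background 4.84%) were at least 2-fold lower, and 0 (background 1.22%) and 1 (background 2.89%) at least 2-fold higher. Those lower labelled serum-free were both probe sets of MAP2 and a dim one of NCAM1. That of NCAM1 read 9.6 in induced and 22.3 in silenced cells, so its fold is a bound. Those lower labelled serum were of MAP2, SNAP25, SYT1 and NCAM1. Probe sets of 1 gene are not independent. Labelled serum-free the NCAM1 and second MAP2 probe sets passed the filter through the silenced array alone, as did MAP2 and SYT1 labelled serum.

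**Figure D4:**
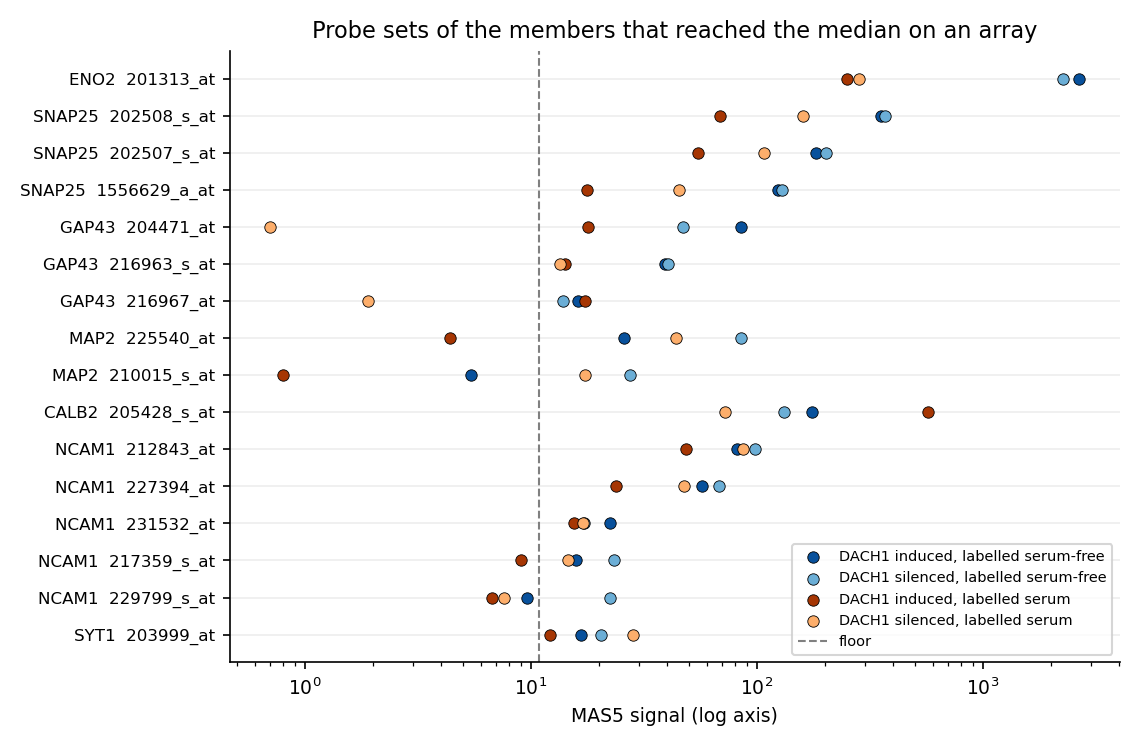
MAS5 signal (log axis) of the 16 probe sets of the members that reached the median of all signals on an array, with 1 point per array and the floor dashed. The 3 probe sets of SNAP25 show the same order, with induced cells labelled serum lowest, and both probe sets of MAP2 have each induced array to the left of the silenced array of its medium.

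The patterns were set beside all genes with 4 signals of at least 50, by the distance between log2 profiles over the 4 arrays after each gene's mean was subtracted. This rests on 4 points, and 16.8% of 7926 genes correlated at 0.95 or more with ENO2, 6.4% with SNAP25 and 1.7% with CALB2. Nearest to ENO2 were HILPDA, SYTL2 and MPRIP, at distances of 0.28, 0.29 and 0.32. CLEC2B, PCOLCE and EDIL3 were nearest to SNAP25 (0.13, 0.15 and 0.19), and TBC1D2, PAX8-AS1 and TGFA to CALB2 (0.41, 0.43 and 0.70).

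Genes that work with the markers were then read from lists by role. Each count called for medium below stands against 15.4% of all genes fitted higher and 12.7% lower with the serum-free label. Of 12 genes of microtubules and growth cones, 9 entered the fit, 4 rose and 1 fell in the medium labelled serum-free. TUBB3 rose 3.07-fold (limma adjusted p 0.0342), the collapsin response gene DPYSL3 2.78-fold (0.0236), MAP1B 2.16-fold (0.0404) and STMN1, the stathmin of dividing cells, 1.88-fold (0.0468). FEZ1, a kinesin adaptor of axonal transport, fell 4.23-fold (0.0170), at 10.1 and 11.1 in induced and silenced cells labelled serum-free and 42.9 and 50.5 in those labelled serum. Only its arrays labelled serum reached the median of all signals, and its induced signal labelled serum-free lay under the floor. Of 5 neurofilament partners, 3 entered the fit and 0 were called, and the heavy chain NEFH was under the floor on every array.

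Of 13 genes of synaptic vesicles and release, 11 were named on the array, 5 entered the fit, 1 rose and 3 fell with the serum-free label, with a median log2 difference of -0.81. VAMP2, the vesicle SNARE that binds SNAP25, read 40.7 and 37.1 in induced and silenced cells labelled serum-free and 98.2 and 134.0 in those labelled serum (2.95-fold lower, limma adjusted p 0.0247). STX1A, the syntaxin of the same complex, read 66.2 and 73.8 against 171.2 and 139.9 (2.21-fold lower, limma adjusted p 0.0328). SYT11, a relative of SYT1, fell 1.76-fold (0.0490), and RAB3A, a vesicle GTPase at 20.4 and 21.6 against 10.8 and 9.9, rose 1.93-fold (0.0342). Both RAB3A signals labelled serum lay under the floor, and only its arrays labelled serum-free reached the median of all signals.

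Secretory granule genes were mixed, with 1 of 5 fitted higher and 1 lower: the granin gene SCG2 rose 2.03-fold (limma adjusted p 0.0315) and the chaperone gene SCG5 fell 2.02-fold (0.0327). SCG2 was near background, at 23.2 and 28.6 in induced and silenced cells labelled serum-free and 6.5 and 14.8 in those labelled serum. Only its arrays labelled serum-free reached the median of all signals, and its induced signal labelled serum lay under the floor. UCHL1, a bright neuronal ubiquitin hydrolase, was 1.57-fold higher (0.0982). Of 9 neuronal RNA-binding genes 4 entered the fit and 0 were called. Of 11 neurogenic factors 9 were named, 2 entered and 1 fell: SOX4 was under the floor in both arrays labelled serum-free and read 471.9 in induced and 100.1 in silenced cells labelled serum (limma adjusted p 0.0227). SOX4 thus entered the fit through its arrays labelled serum alone. NEUROG2, INSM1, MYT1L, TBR1 and SOX11 were under the floor on every array.

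REST, the repressor of neuronal genes, was itself measured well. It read 159.7 in induced and 123.5 in silenced cells labelled serum-free, against 280.8 in induced and 327.9 in silenced cells labelled serum. It fell 2.16-fold with the serum-free label (log2 -1.11, SE 0.23, limma adjusted p 0.0399), the media did not overlap, and the DACH1 states differed by 1.29-fold or less. Of 12 genes of its complex 11 entered the fit, 2 rose and 1, REST, fell. CTDSP1, a phosphatase that acts with REST, rose 3.92-fold (0.0170) and the histone methyltransferase gene EHMT2 2.30-fold (0.0250), while HDAC1 and HDAC2, the corepressor deacetylases, passed in neither direction (0.302 and 0.169). The part of REST in the marker differences was not tested.

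**Figure D5:**
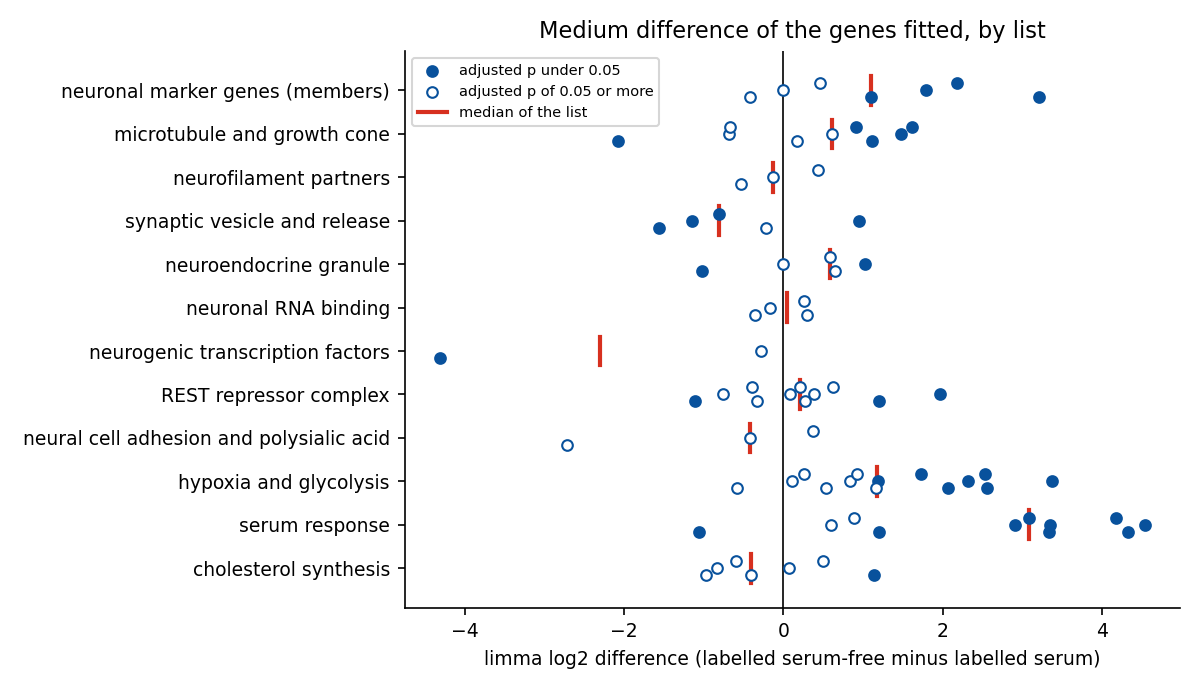
Log2 difference between the media (labelled serum-free minus labelled serum) from limma for every gene fitted in the members and in 11 lists, with filled points where the adjusted p was under 0.05 and red bars at the list medians. The members have 4 filled points above 0, the synaptic vesicle list has 3 below 0 and 1 above, and the serum response list has 8 above 0.

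Of 7 cholesterol synthesis genes fitted, 1 rose with the serum-free label and 0 fell, against 15.4% of all genes higher and 12.7% lower. The gene called was LSS, the lanosterol synthase gene (2.19-fold, limma adjusted p 0.0275). The median log2 difference of the list was -0.405, against 0.02 over all genes. In induced cells 6 of the 7 were lower and 1 higher, and in silenced cells 4 were lower and 3 higher.

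None of these lists had a gene called for DACH1 state in limma. In the pair labelled serum, SOX4 was 4.71-fold higher with DACH1, and VGF, a neuropeptide precursor gene chosen after its values were seen, 2.09-fold higher (57.0 in induced and 27.3 in silenced cells). In the same pair, 2 of 4 adhesion genes compared were at least 2-fold lower with DACH1, against 4.77% of all genes compared. They were NRCAM, a partner of neuronal ankyrins, at 22.2 in induced and 231.3 in silenced cells, and ST8SIA4, at 5.5 and 31.6. ST8SIA4 adds polysialic acid to NCAM1. It was compared through its silenced array alone, its fold is a bound, and it was under the floor in both arrays labelled serum-free. NRCAM was under the floor in both arrays labelled serum-free, at 8.7 and 9.4. NFASC, its close relative, read 203.1 and 131.8 in induced and silenced cells labelled serum and 203.7 and 219.5 in those labelled serum-free.

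Signals of markers of other cell types are given as sums over each list, which rest mainly on 1 or a few probe sets and include signals under the floor, so they carry no test. The 4 leukocyte genes measured summed to 55.0 and 89.6 in induced and silenced cells labelled serum-free and to 44.2 and 25.1 in those labelled serum, with AIF1 and CD14 under the floor on every array and CSF1R, the receptor of microglia, 2.86-fold higher with the serum-free label (limma adjusted p 0.0308). The 4 endothelial genes summed to 68.7 and 74.5 against 164.6 and 110.3, with VWF under the floor throughout and the VEGF receptor gene KDR 3.87-fold lower (limma adjusted p 0.0282). The 5 oligodendrocyte genes summed to 60.5 and 59.1 against 110.4 and 98.3, with OLIG1 under the floor throughout and OLIG2 5.58-fold lower with the serum-free label (limma adjusted p 0.0170). OLIG2 read 12.3 and 12.2 in induced and silenced cells labelled serum-free, close to the floor, and 79.9 and 58.4 in those labelled serum. Only its arrays labelled serum reached the median of all signals. The part of these lists in the marker differences was not tested.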

How the data were processed

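The data are 4 arrays of total RNA from a human cell line, with 6 µg of RNA labelled per array, per the labels' protocols. The authors deposited 1 linear intensity for each probe set, and the submitters' processing notes name MAS5. The version, scaling target and chip definition were not given in the sources used here. Trimmed array means were 99.63 to 99.65 and their medians 15.7 to 19.3. MAS5 subtracts mismatch signal, which makes logs of low values noisy. Precision is limited by the number of arrays.

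The annotation pairs 41091 of the 54613 probe sets with 1 gene and 1801 with several, and does not list 11721. Symbols were updated through Entrez identifiers. Signals under the 40th percentile (10.9) were set to it. The probe set of highest mean log2 signal after this floor stood for its gene, and ties, as in NEFL, NEFM and STMN2, went by probe set name. A gene entered a pair if 1 of the 2 arrays, and the fit if 2 of the 4, reached the median (17.2). Folds against the floor are bounds. Pairs were counted at 2-fold without a test. Limma (lmFit, eBayes) used DACH1 state and medium as terms, adjusted by Benjamini-Hochberg over all genes fitted, and was tested on simulated data.

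Genes named were chosen from every probe set of the members, REST, TUBB3, DACH1, paralogues and, per list, the 2 of highest signal and up to 3 per factor past 2-fold in both pairs. Some of these, such as BASP1, RBFOX2 and MBP, are not described. MAP1B, STMN1, RAB3A, SCG2 and other list genes named outside that rule were chosen after their values were seen. The members and lists were chosen with earlier results of these data known. Promoter letters are from RefSeq, which matched 4 members. The tools were limma 3.58.1 in R 4.3.3, and numpy 2.4.6, pandas 2.3.3 and matplotlib 3.10.9 in Python 3.11.15.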

Additional observations from a re-analysis of the deposited data

Results flagged for a closer look

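2 results had opposite directions in the 2 settings of the same contrast, each on single arrays, and neither difference was tested. The medium difference of CALB2 was -1.71 on the log2 scale in DACH1-induced and 0.87 in DACH1-silenced cells, a difference of -2.57. The DACH1 difference of ENO2 was 0.23 in the medium labelled serum-free and -0.18 in that labelled serum, a difference of 0.41. Only genes compared in both pairs are listed. SYT1, at 0.47 in induced and -0.47 in silenced cells for medium, is not, because both signals of its induced pair were under the median of all signals.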

How the results depend on the processing

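Tried were no filter, a filter that needs every array above the median, no floor, a floor of 50 with signals of 100 required, a pseudocount of the floor's size, quantile normalization, a gene's mean over its probe sets, dropping _x_at and _s_at probe sets, probe sets fitted singly, and for limma a trend in the variance prior. No member called or 2-fold different changed sign. With no filter limma called 0 genes in either direction for medium, so 0 members, although 4531 genes had an unadjusted p under 0.05. The 4 members called higher became 2 with no floor, 2 with the floor of 50 (3 fitted) and 2 with every array above the median (4 fitted). Genes called higher and lower were 1240 and 935 with no floor, and 3863 and 2935 of 23629 over all probe sets. For DACH1 state, 1 gene was called higher with every array above the median and 1 with the trend, and 0 members under any alternative. Of the 2-fold counts for DACH1 labelled serum, members higher were 2 with the pseudocount and 0 without _x_at and _s_at, which leaves out CALB2, and members lower were 1 with the floor of 50 and 1 with every array above the median, and 2, without SYT1, with the pseudocount and with the mean of probe sets. Labelled serum-free, members lower were 0 with the floor of 50. For medium in induced cells, members higher were 2 with the floor of 50, and members lower 0 without _x_at and _s_at. The GAP43 difference with DACH1 labelled serum-free was -0.05 with no floor, where another probe set stands for the gene. No paired analysis was possible because each condition has 1 array and the labels carry no replicate numbers; leaving out an array leaves no residual degree of freedom, only the pairs given above.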

Other observations

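MYT1, a zinc finger factor of neural precursors chosen after its values were seen, read 9.3 in induced and 29.4 in silenced cells labelled serum, and 8.1 and 19.8 in those labelled serum-free. It was not called for DACH1 in limma (adjusted p 0.931). Both induced signals of MYT1 lay under the floor, so its differences are bounds. Only its silenced arrays reached the median of all signals, and it passed the filter through these alone.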
